A study of Mus musculus with 6 samples.

Results

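The 10 genes described here encode the lysyl oxidases Lox, Loxl1, Loxl2 and Loxl3, the fibrillins Fbn1 and Fbn2, the fibulins Fbln1, Fbln2 and Fbln5, and elastin (Eln). They were chosen by name. All 10 had a row among the 17551 genes of the HTSeq table, so none was read from the Cufflinks table, and all 10 were among the 14643 genes that passed the filter on low counts. They were read in total RNA of 6 mouse neurosphere cultures on a C57BL/6 background, 3 carrying the genotype label ACVR1 G328V and 3 the label ACVR1 WT. Neurospheres are clumps of neural stem and progenitor cells that grow in suspension, kept here in DMEM/F12 with N2, B27, EGF and FGF in both groups. The submitters call the G328V cultures NPAC or mACVR1 and the WT cultures NP or wt-ACVR1. The labels do not say what these letters stand for, which locus or promoter carries the mutant receptor, what other alleles the cultures share, or how old the animals behind them were. ACVR1 is a receptor of the BMP (bone morphogenetic protein) pathway. The comparison asks which genes differ between the 2 kinds of culture.

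Elastic fibres consist of a core of cross-linked elastin on a scaffold of fibrillin microfibrils. Fibulins bind both and help to deposit elastin on the scaffold, and lysyl oxidases are secreted copper enzymes that oxidise lysines of elastin and collagen so that the chains cross-link. Mature elastic fibres are found mainly in arteries, lung and skin. In the brain these genes are best known from vessel walls and meninges.

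The copper site is what makes the lysyl oxidases a family, and it is shown here because relatives with similar sequence could share reads. It is given for Loxl1, Loxl2 and Loxl3 only, and that of Lox was left out of this comparison. The coding bases around it in the longest coding transcript (GENCODE M21, GRCm38) are printed 5′ to 3′, with the codons of its histidines in capitals.
Loxl1: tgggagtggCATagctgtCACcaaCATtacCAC
Loxl2: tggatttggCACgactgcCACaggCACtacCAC
Loxl3: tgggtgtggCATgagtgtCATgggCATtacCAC
Each stretch spans an exon junction. That of Loxl1 runs from exon 3 to exon 4 of 7 (chr9:58293720-58294381, minus strand), that of Loxl2 from exon 10 to exon 11 of 14 (chr14:69682316-69689037, plus strand), and that of Loxl3 from exon 10 to exon 11 of 14 (chr6:83049995-83050125, plus strand). The stretches were located by a protein pattern that requires these 4 histidines, so their presence in each was set by the search. Loxl1 and Loxl2 were identical at 22 of 33 bases, and Loxl3 was identical to each of them at 25 of 33. No run of 50 transcript bases was shared between any of the 10 genes.

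Outside the family, 3 genes shared a larger part of their transcript with another gene. For Loxl2, 45% of its runs of 50 bases also occurred elsewhere, mainly in Gm21451, annotated as an unprocessed pseudogene on chromosome 14 as well. For Fbn1, 19.9% also lay in Gm9913 on the opposite strand, and for Loxl3, 9.79% lay in Htra2 on the opposite strand. The library kit is labelled as stranded, but the sources used here do not say whether the counting used strand, so reads of Fbn1 and Loxl3 and of those neighbours may not be told apart. The HTSeq table held 1.166 to 1.85 counts of Loxl2 for each fragment that Cufflinks estimated, beside a median of 1.953 to 1.964 over 8924 genes with at least 500 counts. That ratio was 1.904 to 1.983 for Fbn1 and 1.081 to 2.111 for Loxl3, lowest in G328V replicate 3. It was 0.837 for Loxl1 in G328V replicate 2, with 82 counts beside 98 fragments. Levels of Loxl2, and of Loxl3 and Loxl1 in those libraries, are therefore less certain. For most genes the table holds close to 1.96 counts per fragment, so counts are not independent molecules.

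Total gene counts ranged from 115953495 to 191115532 per library. Levels are given in CPM, the counts per total of 1e6 after TMM scaling, in the order of replicates 1, 2 and 3 for G328V and of replicates 1, 3 and 70A for WT. Acvr1, the gene named in the genotype, stood at 244, 250 and 650 CPM in G328V against 42.4, 100 and 90.7 CPM in WT. Xist, the RNA of the inactive X chromosome, separated the same groups, with 444 to 795 CPM in G328V and at most 1.18 CPM in WT, so genotype and sex of the cultures cannot be told apart in any comparison here. Of 8 neural stem markers, Sox2 was at 134 to 237 CPM, Vim at 1718 to 3189 CPM and Nes at 91.2 to 963 CPM in the 6 libraries, whereas Hes5 was at most at 0.244 CPM. Prom1 was higher in each G328V library (133, 288 and 190 CPM against 68.8, 10.2 and 7.92) and Sox9 lower (33.2, 80.1 and 43.0 CPM against 109, 151 and 140). Of these 8 markers, 1 was thus higher and 1 lower without overlap of the groups. Over all genes tested, 5.25% were higher and 4.45% lower in this way. Fabp7 ranged from 0.182 to 1313 CPM, highest in WT replicate 1, and Pax6 from 2.83 to 39.0 CPM.

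Markers of cell types that make elastic fibres elsewhere were uneven. The summed level of 8 fibroblast markers was 91.6 to 366 CPM in G328V and 45.9 to 572 CPM in WT. It came mainly from Col3a1, Pdgfra, Foxc1 and Twist1, and in G328V replicate 2 also from Islr, while Dcn and Lum, which define fibroblasts, stayed at or below 1.36 CPM and were at 0 counts in 3 and 4 libraries. Foxc1 was higher in each G328V library, at 67.1, 112 and 64.4 CPM against 15.6, 36.8 and 23.0. It was the only 1 of these 8 without overlap of the groups, beside 5.25% of all genes tested with G328V higher. The sum of 8 pericyte and smooth muscle markers was 16.3 to 299 CPM in G328V and 3.75 to 45.4 CPM in WT, mostly from Rgs5 and Pdgfrb, with Acta2 and Myh11 at or below 0.146 CPM. The highest sum, in G328V replicate 3, was nearly all Rgs5, at 299 CPM there and at most 7.22 CPM elsewhere. Tagln, low in all libraries, was lower in each G328V library, at 0.0874, 0 and 0.00544 CPM against 0.293, 0.222 and 0.172. No other of the 8 pericyte and smooth muscle markers separated the groups, and 4.45% of all genes tested did so with G328V lower. Endothelial markers, 7 of 8 with a row, summed to 9.10 to 24.1 CPM in G328V and 6.63 to 45.1 CPM in WT. Those of microglia and macrophages, 5 of 8 with a row, summed to at most 2.21 CPM in any library. WT replicate 1 stood apart in oligodendrocyte lineage markers, which summed to 1085 CPM there (Olig1 at 615, Olig2 at 416) and to 9.11 to 218 CPM in the other libraries.

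For none of the 10 genes did the difference between G328V and WT pass the test, and most of them varied several-fold between cultures of the same genotype. By edgeR's quasi-likelihood test with Benjamini-Hochberg adjustment over all 14643 genes, 0 of the 10 were called, where the same test called 0.0% of all genes. At an unadjusted p under 0.05 it counted 2 of the 10, Lox and Fbn1, both lower in G328V, against 2.17% of all genes in that direction. DESeq2 called 1 of the 10, Lox, as lower, against 0.986% of 17551 genes in either direction and 0.45% as lower. Shares for DESeq2 are taken over all 17551 genes, also those to which it gave no adjusted p, such as Fbln2. At an unadjusted p under 0.05 DESeq2 counted 3 as lower (Lox, Loxl1 and Fbn1), against 3.32% of all genes. With limma-voom 0 were called, where it called 0.0% of all genes, and 1, Lox, was lower at an unadjusted p under 0.05, against 1.96%.

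The median edgeR log2 difference over the 10 was -0.50, beside -0.00 over all genes tested. It was 0.94 over 9 of them without WT replicate 70A and -1.42 without G328V replicate 2. Positive values were found for 4 genes and negative values for 6, where 49.7% of all genes were positive. The groups did not overlap for 1 gene, Lox, which was lower in G328V, against 4.45% of all genes, and for 0 genes with G328V higher, against 5.25%. The range over the 6 libraries exceeded 4 on the log2 CPM scale (prior count of 2) for 7 of the 10, beside 28.0% of all genes tested. Nothing in the labels ties a culture to an animal of its own, although the submitters call the 3 of each group biological replicates, so the p-values measure the spread between these cultures. In bulk RNA, fewer cells of a type and less RNA per cell cannot be told apart.

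**Figure D1:**
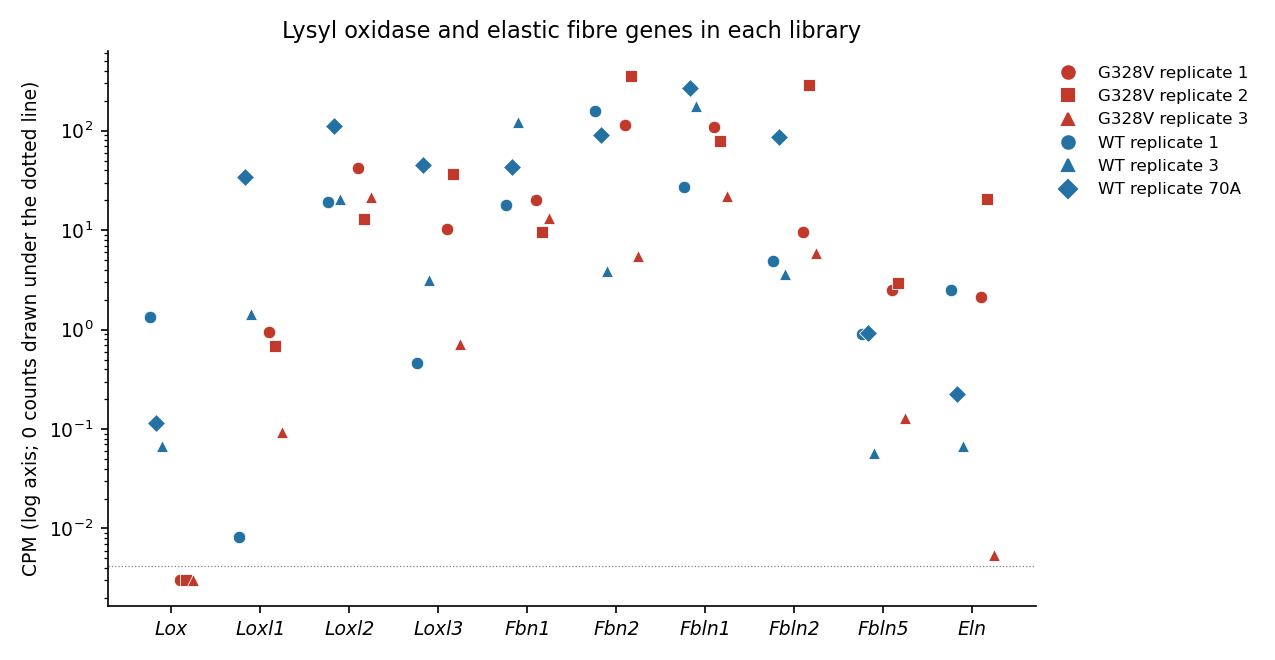
CPM of the 10 genes (x axis) in each of the 6 libraries on a log axis, red for G328V and blue for WT, with a marker shape for each replicate number. The red and blue ranges overlap for each gene but Lox, whose 3 red points are at 0 counts, and 7 genes spread over more than 4 log2 units.

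Lox, the founding lysyl oxidase, was nearly silent. It had 0 counts in each of the 3 G328V libraries, and 166, 12 and 20 counts, or 1.35, 0.0682 and 0.115 CPM, in the WT libraries. WT replicate 1, the library with high Olig1 and Olig2, thus held most of the counts, and the other WT libraries lay just above zero. The part of such cells in the level of Lox was not tested. Taken as a limit of 3 fragments, each worth about 1.96 counts, a count of 0 allows up to 0.0344, 0.0487 and 0.0320 CPM in the G328V libraries. Against that floor over the 3 G328V libraries together, the pooled level was at least 33.9-fold lower in G328V, and at least 7.4-fold lower without WT replicate 1. A floor of 3 counts, which takes each count as independent, gives 66.4 and 14.5 in place of these. All these folds pool the cultures of a group, so they cover counting error only and not the spread between cultures. By library, WT replicate 3 at 0.0682 CPM lay little above the 0.0487 CPM that a count of 0 allows in G328V replicate 2. The edgeR unadjusted p was 0.0209 and its adjusted p 0.997. The DESeq2 adjusted p was 0.0461. It was 0.588 without WT replicate 1 and ranged from 0.0391 to 0.588 over the 6 DESeq2 fits that each left out a library. Lox passed the filter on low counts only through WT, which favours groups that do not overlap. The gene lies on chromosome 18, 52516067 to 52529867, minus strand (GRCm38, as for all positions here).

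Loxl1, which cross-links elastin in particular, spanned the widest range of the 10. G328V cultures had 0.956, 0.681 and 0.0925 CPM, and WT cultures 0.00813, 1.44 and 34.3 CPM. WT replicate 70A stood far above the rest, and WT replicate 1, with a single count, was the lowest library of all, so the WT group enclosed the G328V group. The log2 difference was -4.37 (SE 2.39, edgeR unadjusted p = 0.115, adjusted p = 0.997), and -0.34 without WT replicate 70A. The DESeq2 adjusted p was 0.42. It fell to 0.0158 without WT replicate 1 and ranged up to 0.9998 over the fits without 1 library. Loxl1 lies on chromosome 9, 58287738 to 58313186, minus strand.

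Loxl2, an oxidase with scavenger receptor domains that acts on collagen IV, had the narrowest range of the 10, 3.10 log2 units. G328V cultures had 42.4, 13.0 and 21.6 CPM, and WT cultures 19.1, 20.6 and 111 CPM. Apart from WT replicate 70A, the libraries of both groups lay in the same range. The log2 difference was -0.97 (SE 0.84, edgeR adjusted p = 0.997), and it turned to 0.37 without WT replicate 70A. Of the counts of the 4 lysyl oxidases, Loxl2 made up 79.1%, 25.7% and 96.4% among the G328V cultures, and 91.3%, 81.5% and 58.3% among those of WT. It was the most counted of these 4 in 5 of 6 libraries, and Loxl3 was so in G328V replicate 2. Loxl4, a lysyl oxidase outside the 10 genes, is not part of this share. Its level exceeded that of Loxl2 in G328V replicate 2 (30.4 against 13.0 CPM) and WT replicate 3 (26.9 against 20.6 CPM), and was lower in the other libraries. Loxl2 had only 1.166 counts per estimated fragment in G328V replicate 2 and 1.385 in WT replicate 3. The order of Loxl4 and Loxl2, which is not per kb, is therefore less certain there. The mean share of Loxl2 was 67.1% ± 36.8 (SD, n = 3) for G328V and 77.0% ± 16.9 (SD, n = 3) for WT. An exact two-sided permutation test gave p = 0.8, where 0.1 is the smallest that 3 against 3 allows. Loxl2 lies on chromosome 14, 69609068 to 69695834, plus strand.

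Loxl3, a related oxidase with scavenger receptor domains, varied widely in both groups. G328V cultures had 10.2, 36.8 and 0.723 CPM, and WT cultures 0.463, 3.17 and 45.1 CPM. High and low libraries occurred in each group, and the WT range enclosed that of G328V. The log2 difference of -0.03 (SE 1.78, edgeR adjusted p = 0.9998) is small beside its error, which spans several-fold changes in either direction. Without WT replicate 70A it was 3.11. Its sign was also positive without G328V replicate 1 (0.21), without G328V replicate 3 (0.53), and under total-count scaling, limma-voom and the replicate block. Loxl3 lies on chromosome 6, 83034173 to 83052562, plus strand.

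The fibrillins build the microfibril scaffold, Fbn2 mainly during development and Fbn1 throughout life. Fbn1 reached 20.0, 9.68 and 13.3 CPM in the G328V cultures and 17.7, 122 and 43.2 CPM in the WT cultures. The G328V libraries lay close together, with WT replicates 3 and 70A above them and WT replicate 1 among them. The means were 14.3 ± 5.26 CPM (SD, n = 3) for G328V and 60.9 ± 54.2 CPM (SD, n = 3) for WT. The log2 difference was -2.09 (SE 0.74, edgeR unadjusted p = 0.0292, adjusted p = 0.997). It was negative under each of 15 alternatives, from -2.53 without WT replicate 1 to -1.10 without WT replicate 3. The DESeq2 adjusted p was 0.261. It was 0.00426 without WT replicate 1 and otherwise up to 0.668 over the fits without 1 library. Fbn1 lies on chromosome 2, 125300594 to 125507993, minus strand.

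Fbn2 reached 114, 356 and 5.48 CPM in the G328V cultures and 159, 3.86 and 90.0 CPM in the WT cultures. Here 2 of 3 libraries of each group were high, and the library numbered 3 was low in each. The log2 difference was 0.91 (SE 1.56, edgeR adjusted p = 0.997) and turned to -0.50 without G328V replicate 2. Fbn2 lies on chromosome 18, 58008623 to 58210487, minus strand.

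Which fibrillin prevailed differed between cultures. Per kb of exon, the level of Fbn2 was 8.60, 26.9 and 0.415 CPM per kb among the G328V cultures, and 12.0, 0.292 and 6.81 CPM per kb among those of WT. That of Fbn1 was 1.65, 0.798 and 1.10 CPM per kb in G328V, and in WT it was 1.46, 10.04 and 3.57 CPM per kb. Fbn2 thus exceeded Fbn1 in 4 libraries, and Fbn1 exceeded Fbn2 in the replicates numbered 3 of both groups. Of all fibrillin counts, Fbn2 took 85.0% (95% exact Clopper-Pearson interval, with 1.96 counts taken as 1 fragment, 84.3 to 85.7), 97.4% (97.1 to 97.6) and 29.2% (27.1 to 31.4) in the G328V libraries. In the WT libraries its share was 90.0% (89.4 to 90.5), 3.07% (2.77 to 3.41) and 67.5% (66.7 to 68.4). The intervals cover counting error only and do not overlap between any pair of the 6 libraries. The group means of 70.5% ± 36.3 (SD, n = 3) for G328V and 53.5% ± 45.1 (SD, n = 3) for WT gave p = 0.6 by the exact two-sided permutation test.

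**Figure D2:**
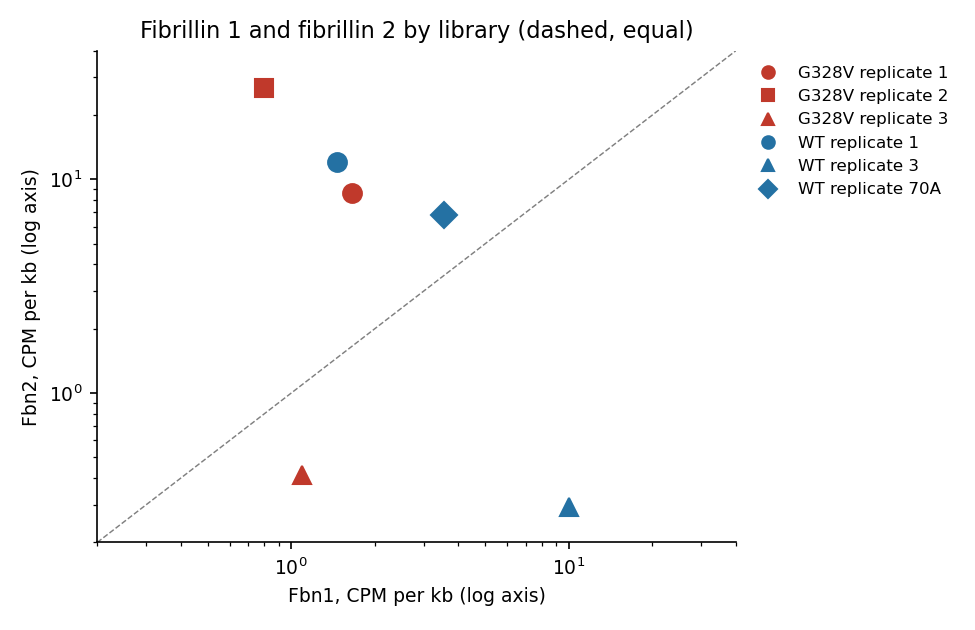
Level of Fbn2 (y axis) against Fbn1 (x axis) in CPM per kb of exon, both on log axes, 1 point for each library, red for G328V and blue for WT, with a dashed line of equal level. The replicates numbered 3 lie below the line, with Fbn2 at 0.415 and 0.292 CPM per kb, and the other 4 libraries lie above it.

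Of the fibulins, Fbln1 and Fbln2 were well expressed in some cultures and Fbln5 was low in all. Fbln1, which binds fibronectin and elastin, had 109.5, 78.5 and 21.8 CPM in the G328V cultures and 27.3, 178 and 266 CPM in the WT cultures. WT held both of the highest libraries, and WT replicate 1 lay with the lowest. Its log2 difference was -1.17 (SE 0.90, edgeR adjusted p = 0.997), with -0.56 without WT replicate 70A and -1.69 without WT replicate 1. Fbln1 lies on chromosome 15, 85205949 to 85286535, plus strand.

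Fbln2, a fibulin that binds fibrillin and versican, had 9.66, 289 and 5.84 CPM in the G328V cultures and 4.88, 3.59 and 87.4 CPM in the WT cultures. In each group a single library held nearly all of it, G328V replicate 2 and WT replicate 70A, and the other 4 libraries stayed under 10 CPM. Its log2 difference was 1.67 (SE 1.86, edgeR adjusted p = 0.997). It turned to -2.05 without G328V replicate 2 and was 4.55 without WT replicate 70A. Fbln2 lies on chromosome 6, 91212455 to 91272540, plus strand.

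Fbln5, which tethers elastic fibres to integrins, had 2.50, 2.97 and 0.131 CPM in the G328V cultures and 0.910, 0.0568 and 0.931 CPM in the WT cultures. Here 2 G328V libraries were the highest, and the library numbered 3 was the lowest of its group in each. Its log2 difference was 1.56 (SE 1.52, edgeR adjusted p = 0.997). Fbln5 lies on chromosome 12, 101746565 to 101819055, minus strand. Of the counts of these 3 fibulins, Fbln1 took 90.0%, 21.2% and 78.5% among the G328V cultures, and 82.5%, 97.99% and 75.1% among those of WT, so that Fbln2 outnumbered it in G328V replicate 2 and in no other library. The mean share of 63.2% ± 36.9 (SD, n = 3) for G328V and 85.2% ± 11.7 (SD, n = 3) for WT gave p = 0.5 by the exact two-sided permutation test.

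Eln, the elastin gene itself, was the most uneven within G328V. The G328V cultures had 364, 2481 and 1 counts, or 2.12, 20.6 and 0.00544 CPM. The WT cultures had 311, 12 and 39 counts, or 2.53, 0.0682 and 0.224 CPM. G328V replicate 2 was the highest and G328V replicate 3 the lowest of the 6, so the G328V group enclosed the WT group. The log2 difference was 3.01 (SE 2.39, edgeR unadjusted p = 0.253, adjusted p = 0.997). It was 0.18 without G328V replicate 2 and 5.65 without WT replicate 1. Eln lies on chromosome 5, 134702593 to 134747323, minus strand.

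**Figure D3:**
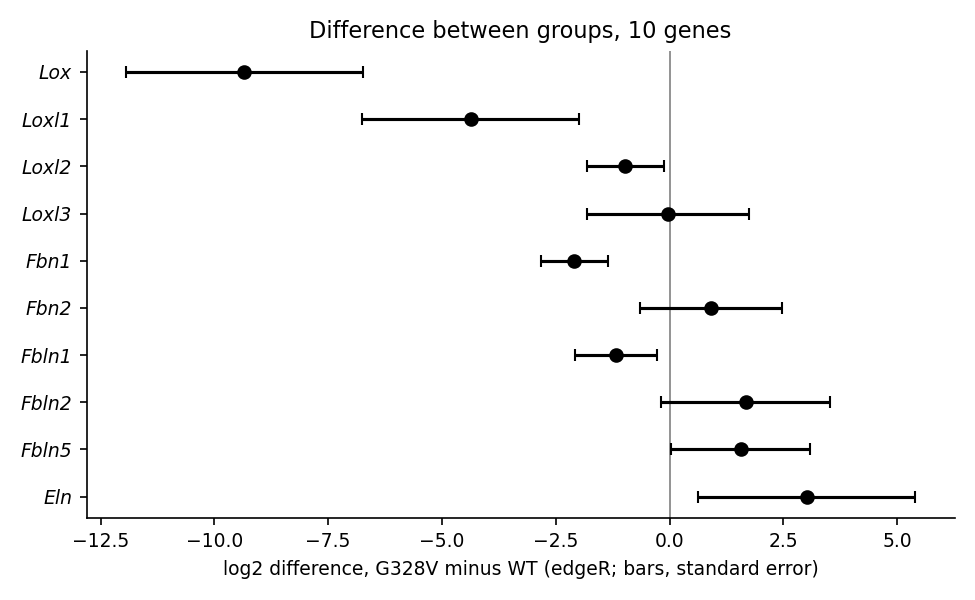
The edgeR log2 difference of each of the 10 genes (y axis), G328V minus WT (x axis), as points with bars of 1 standard error on each side. The points of 6 genes lie below 0 and those of 4 above it, no gene passed the adjusted test, and the size of Lox, fitted against 0 counts in G328V, is no measured fold.

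Averaged over the 6 libraries and per kb of exon, Fbln1 stood first at 26.0 ± 21.6 CPM per kb (SD, n = 6), followed by Fbln2 at 10.5 ± 17.8, Fbn2 at 9.17 ± 9.84 and Loxl2 at 7.02 ± 6.90 CPM per kb. Loxl3 at 3.49 ± 4.29, Fbn1 at 3.10 ± 3.53 and Loxl1 at 1.90 ± 4.17 CPM per kb came next. The lowest levels were those of Eln at 0.526 ± 0.998, Fbln5 at 0.181 ± 0.176 and Lox at 0.0534 ± 0.113 CPM per kb. In each of the 9 neighbouring pairs of this order the mean difference within libraries was smaller than its SD. The exact two-sided sign-flip permutation test over 6 libraries gave unadjusted p-values of 0.156 to 0.969 and Benjamini-Hochberg adjusted values of 0.809 to 0.969 over the 9 pairs, so the order of neighbours was not resolved. The pairs were formed by sorting on these same means, so each joins genes that are next to each other by choice. Genes farther apart in the order were not tested.

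By library, WT replicate 70A had the highest level of 4 of the 10 genes, Loxl1, Loxl2, Loxl3 and Fbln1, and lay above the gene's own mean log2 CPM for 9 of 10. G328V replicate 2 had the highest level of another 4, Fbn2, Fbln2, Fbln5 and Eln. G328V replicate 3 lay above the gene's own mean for 0 of the 10, with a median deviation of -2.14 on the log2 scale. The sum of the 8 fibroblast markers was also highest in WT replicate 70A, at 572 CPM, of which Col3a1 made up 455 CPM, and next in G328V replicate 2, at 366 CPM. Dcn and Lum, however, were at 0.0977 and 0.167 CPM in WT replicate 70A and both at 0 CPM in G328V replicate 2. The part of fibroblasts in the levels of the 10 genes was not tested.

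For the 7 of the 10 genes with at least 5 CPM on average, the most similar profiles were sought among 8862 genes with at least 10 CPM, by the root-mean-square difference of centred log2 CPM over the 6 libraries. The nearest to Fbln1 was Pcolce, which encodes an enhancer of procollagen C-proteinase, at 0.08 log2 units. Pcolce had 121, 87.2 and 24.7 CPM in the G328V cultures and 29.9, 172 and 295 CPM in the WT cultures. The ratio of Fbln1 to Pcolce counts was 0.903, 0.900 and 0.883 among the G328V cultures, and 0.912, 1.04 and 0.904 among those of WT, while each of them spanned more than 10-fold. Over the 1467 of the 8862 genes whose range exceeded 3 log2 units, the median distance to the nearest profile was 0.46, and 0 had another gene as near as Pcolce is to Fbln1. The second nearest to Fbln1 was Vasn, a TGF-beta binding membrane protein, at 0.35.

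Fbn1 was nearest to Cst6, a cystatin, at 0.36 and to the endolysosomal channel gene Tpcn1 at 0.40, all 3 being highest in WT replicate 3. Fbn2 was nearest to the sulfotransferase gene Chst2 at 0.56 and to the transcription factor gene Arnt2 at 0.75. Fbln2 and Loxl3 had the same pair of nearest genes, Igfbp7, an IGF-binding protein, and Gpr124, an adhesion receptor. Their distances were 0.70 and 1.05 for Fbln2 and 0.96 and 0.90 for Loxl3. Loxl2 was nearest to Ptgr1 at 0.37 and Mid1 at 0.39, and Loxl1 to Mmp13, a collagenase, and Arap3, both at 1.30. These distances describe 6 libraries only.

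**Figure D4:**
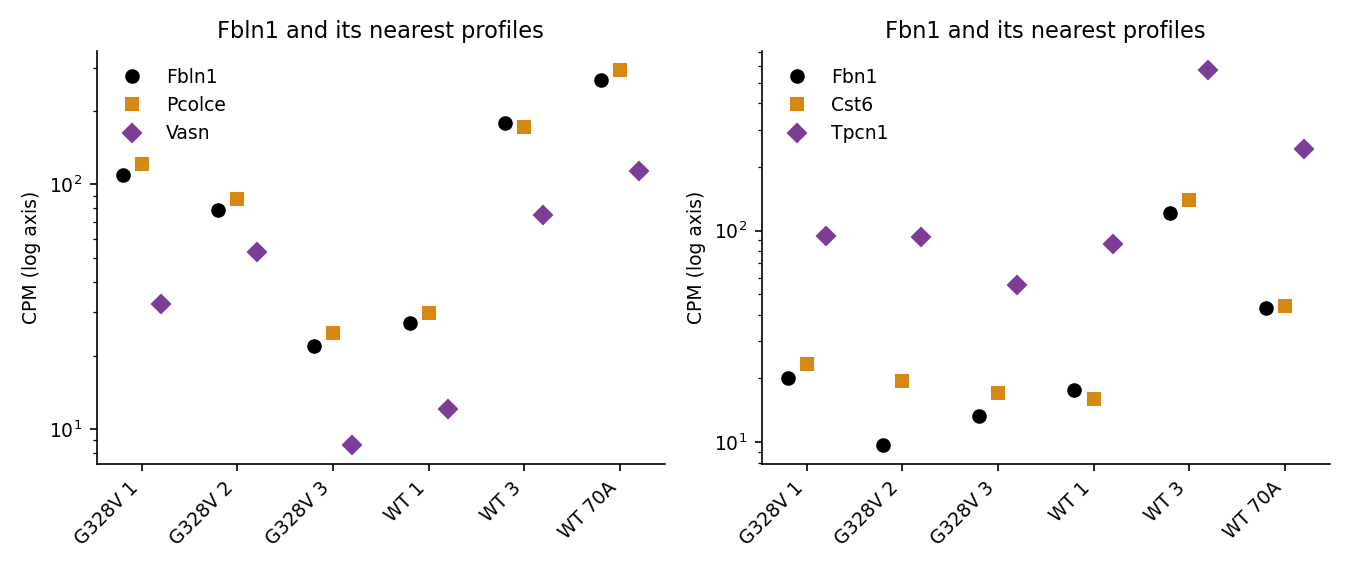
CPM on a log axis of Fbln1 with Pcolce and Vasn (left) and of Fbn1 with Cst6 and Tpcn1 (right) in the 6 libraries on the x axis, 1 marker shape for each gene. Fbln1 and Pcolce lie close together in each library, and Fbn1 and Cst6 peak in WT replicate 3 at 122 and 140.0 CPM.

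Because the levels of Fbln1 and Pcolce ran together across the libraries, the 250 bases before their RefSeq starts (GRCm38.p6) are shown, for Fbln1 at chr15:85205699-85205948 on the plus strand and for Pcolce at chr5:137611405-137611654 on the minus strand. Capitals mark a GC box on either strand.
Fbln1: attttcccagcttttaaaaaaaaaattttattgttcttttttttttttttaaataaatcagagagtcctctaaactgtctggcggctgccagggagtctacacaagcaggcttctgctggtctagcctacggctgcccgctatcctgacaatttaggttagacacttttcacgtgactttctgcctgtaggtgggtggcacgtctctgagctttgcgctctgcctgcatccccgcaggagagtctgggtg
Pcolce: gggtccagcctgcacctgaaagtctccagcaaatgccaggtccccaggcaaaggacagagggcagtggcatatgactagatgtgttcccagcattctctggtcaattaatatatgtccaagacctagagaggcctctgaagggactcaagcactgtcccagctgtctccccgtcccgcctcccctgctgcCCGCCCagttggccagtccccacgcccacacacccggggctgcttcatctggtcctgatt
The GC box GGGCGG, searched on both strands, was found 1 time in the Pcolce window and not in that of Fbln1 shown here. A second RefSeq start of Fbln1, slightly downstream, has an overlapping window with 1 GC box, and 32.7% of 32851 windows of this length held at least 1. TATAAA (12.4% of windows) and GGCGCC, a GC-rich element that BMP-activated SMADs can bind (9.59%), were in none of these windows. Of the 10 genes, Fbn1, Fbln1, Fbln2 and Fbln5 had a promoter entry that was used. GGCGCC was present in both windows of Fbln5 and in no window of Fbn1, Fbln1 or Fbln2, and no motif matches overlapped. A match describes the letters of the window, not a bound site.

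Other genes of elastic fibre assembly also gave no call. Of 24 listed partners (Loxl4, further fibulins and hemicentins, microfibril proteins, EMILINs, ADAMTS and ADAMTS-like proteins, and latent TGF-beta binding proteins), 20 were tested. Of these edgeR called 0 higher and 0 lower, with 0 at an unadjusted p under 0.05 against 4.06% of all genes. DESeq2 called 0 too, against 0.986% of all genes, and limma-voom 0, against 0.0%. The DESeq2 unadjusted p was 0.0125 for Adamts6 and 0.0338 for Adamts17, both lower in G328V, where 3.32% of all genes were lower at a DESeq2 unadjusted p under 0.05. For Emilin1, higher in G328V, the limma-voom unadjusted p was 0.0342. The median log2 difference of the 20 was -0.06, with 9 positive and 11 negative. Adamts6, a metalloprotease that acts on microfibrils, had the smallest edgeR p. It had 1.97, 1.35 and 0.723 CPM in the G328V cultures and 10.1, 2.44 and 3.22 CPM in the WT cultures. It was the only 1 of the 20 whose groups did not overlap, which is near the 4.45% of all genes with G328V lower. The log2 difference was -1.97 (SE 0.89, edgeR unadjusted p = 0.0681, adjusted p = 0.997), and -1.09 without WT replicate 1.

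Ltbp3, a latent TGF-beta binding protein, had 126, 315 and 157 CPM in the G328V cultures and 222, 405 and 551 CPM in the WT cultures, a log2 difference of -0.98 (SE 0.49). Emilin1, a glycoprotein at the interface of elastin and microfibrils, had 42.5, 124 and 119 CPM in the G328V cultures and 62.6, 5.68 and 20.2 CPM in the WT cultures. Its log2 difference of 1.69 (SE 0.89) was 2.85 without WT replicate 1 and 1.18 without WT replicate 3. Adamts17, a protease associated with microfibrils, had 0.192, 0 and 0 CPM in the G328V cultures and 2.67, 0.0909 and 2.40 CPM in the WT cultures. The groups overlapped for Ltbp3, Emilin1 and Adamts17. Loxl4, the remaining lysyl oxidase, had a log2 difference of -0.04 (SE 1.28).

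Of 16 listed substrates, activating proteases and copper carriers, 14 were tested, and edgeR called 0 in either direction, against 0.0% of all genes, with 0 at an unadjusted p under 0.05, against 4.06%. DESeq2 again called 0, against 0.986% of all genes, and limma-voom 0, against 0.0%. The median log2 difference was -0.05, with 7 positive and 7 negative, and 0.67 without WT replicate 70A. Postn, a matrix protein that supports collagen cross-linking, was at 67.9 CPM in G328V replicate 1 and did not exceed 0.504 CPM elsewhere. Its log2 difference of 6.53 (SE 3.15) turned to -0.70 without G328V replicate 1. Fn1, fibronectin, had 489, 1234 and 231 CPM in the G328V cultures and 69.2, 13.3 and 391 CPM in the WT cultures, a log2 difference of 2.05 (SE 1.24). It was 3.97 without WT replicate 70A and 1.19 without G328V replicate 2. Col3a1, a fibrillar collagen that lysyl oxidases cross-link, had 46.2, 20.2 and 0.740 CPM in the G328V cultures and 5.92, 11.2 and 455 CPM in the WT cultures. Its log2 difference of -2.81 (SE 1.99) turned to 1.39 without WT replicate 70A. The copper chaperone Atox1 stayed within a narrow range, with 46.4, 31.9 and 52.4 CPM in the G328V cultures and 50.4, 73.9 and 56.1 CPM in the WT cultures, a log2 difference of -0.47 (SE 0.30).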

How the data were processed

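Total RNA of 3 G328V and 3 WT neurosphere cultures was sequenced after ribosomal depletion with a stranded kit, per the labels' protocols, in which TruSeq and Pico kits both appear. The submitters' processing notes name mm10, FastQC 0.11.3, TopHat2 2.0.13 and Bowtie2 2.2.1. The HTSeq table deposited by the authors holds raw counts per gene symbol, and their deposited Cufflinks table estimated counts, rounded here before testing. The sources used here do not state counting settings, strand use or annotation. The main test used edgeR 4.0.16 in R 4.3.3 (legacy quasi-likelihood fit, robust, TMM, filterByExpr with a minimum count of 10) on HTSeq counts, comparing the 2 groups without covariates, at a Benjamini-Hochberg adjusted p of 0.05 over all tested genes. DESeq2 1.42.0, limma 3.58.1 (voom), other scalings and filters, the Cufflinks table, the replicate number as a block and leaving out each library were alternatives. The fit was also run on counts simulated from these data with planted differences, and the outcome is not reported here. CPM per kb uses the union of GENCODE M21 exons. Named genes were the 10 genes, the 4 with the smallest p in each of 2 pathway lists, the 2 nearest profiles of each of the 10 with at least 5 CPM (among genes with at least 10 CPM and no predicted name), and Acvr1 and Xist. Loxl4 was named, and single marker genes were picked from their lists, after values were seen. The DESeq2 fits without 1 library, the floor of 3 fragments and the floor of Lox without WT replicate 1 were added after seeing the data. The genes and lists were chosen with earlier results of these data known.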

Additional observations from a re-analysis of the deposited data

How the results depend on the processing

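Of 15 alternatives DESeq2 called 173 genes and 1 of the 10 (Lox), and the others, the fits without 1 library included, called 0 genes and 0 of the 10. The 10 genes gave 146 values under these 15, of which 131 kept direction and side of the threshold, 13 turned sign, 1, Lox with DESeq2, passed and 1, Fbln2 with DESeq2, had no p. Lox was not tested with the Cufflinks table, with a minimum of 1 CPM, or without WT replicate 70A. Leaving out each library moved the log2 difference from -2.05 to 4.55 for Fbln2, from -0.50 to 1.72 for Fbn2, from -1.54 to 0.37 for Loxl2, from -1.57 to 3.11 for Loxl3, from -3.91 to 1.39 for Col3a1 and from -0.70 to 7.60 for Postn. Loxl3 was 0.13 with total-count scaling, which moved the median of all genes by 0.12, 0.09 with limma-voom and 0.00 with the Cufflinks table. In the fit with the replicate number as a block, Eln, Loxl1, Loxl2 and Loxl3 were -1.58, 0.89, 0.61 and 1.15, Fn1 was 3.47, the median over the 10 was 0.31 and 0 genes were called. Only numbers 1 and 3 are shared, their deviations correlated at 0.181 and 0.226 across genes, and nothing says that they pair cultures. The cause of these shifts was not tested. DESeq2 without each library, added after seeing the data, gave Fbln2 from -2.06 to 4.54, Fbn2 from -0.52 to 1.75, Loxl2 from -1.56 to 0.34 and Loxl3 from -1.58 to 3.11, with 0.20 and 0.52 without G328V replicates 1 and 3. It called 3 of the 57 values that had a p, Fbn1 and Loxl1 without WT replicate 1 and Lox without G328V replicate 2. Depth limits Lox, Eln, Loxl1 and Fbln5, each with under 20 counts in at least 1 library.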
